A study of Homo sapiens with 8 samples.

Results

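HT-29 cells exposed to an extract of MRQ 74 rice, named 74 3NP in the labels, were compared with control HT-29 cells of the same time. HT-29 is an established line grown from a human colorectal adenocarcinoma and is known for a mutant APC. The comparison used 4 of the series' 8 libraries: 1 of control cells at 24 h, 1 of control cells at 48 h, and 1 of extract-treated cells at each of the same times. All cells were cultured in RPMI-1640 with serum, and the labels put the extract at its IC50 without a concentration. The sources used here do not say what 3NP means, which solvent was used or what the control cells received. The labels' treatment field reads plant extract throughout, even for controls, so groups were taken from the sample titles. The other 4 libraries were of cells given 5-fluorouracil or the 76 3P extract of MRQ 76 rice. In the main fit they entered only the filter and the estimate of spread, except where the 2 extracts are set side by side. They also entered alternative settings, such as fits with 1 library left out.

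Values were FPKM, the reads on a gene scaled by its length and by library depth. Differences are given on the log2(FPKM + 1) scale as extract minus control of the same time, which understates the change of genes under about 1 FPKM. Of 60796 genes in the table, 13388 reached an FPKM of 1 in 2 or more libraries and were described. With 1 library per treatment and time, no difference at a single time was tested. The test is limma's moderated test of the mean over both times, with 2 libraries against 2 and Benjamini-Hochberg adjustment over all 13388 genes. A gene is called changed the same way at both times where it differed by 1.5-fold or more, on the log2(FPKM + 1) scale, in the same direction at 24 h and at 48 h. This is a description, not a test, but the 24 h and 48 h differences share no library. Where groups are said not to overlap, the gene was named with earlier results of these data known. The share of all tested genes without overlap was not counted, so absence of overlap only describes the named gene.

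The aryl hydrocarbon receptor (AhR) is a transcription factor in the cytoplasm that binds planar aromatic molecules, many of them made by plants, moves to the nucleus, pairs with ARNT and switches on CYP1A1, CYP1B1 and other genes of foreign-compound metabolism at short DNA elements with the core GCGTG. NF-kB is held in the cytoplasm by inhibitors such as the product of NFKBIA. Once released it binds DNA elements that begin with GGGA, go on with any 4 bases and end in CC (kB pattern), and switches on chemokine, acute phase and antimicrobial genes, together with its own inhibitors, which close a feedback loop. In the gut lining the same genes are known for calling neutrophils and lymphocytes to sites of infection.

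Promoters of 4 of the genes described below are shown because they carry these elements close to the start site. They run from 250 bases before to 50 bases after the start annotated by RefSeq on GRCh38.p14 and read 5′ to 3′ on the gene's strand. Capitals mark each match to the kB pattern on either strand in the first 3 sequences, and the single match to GCGTG in the last. The positions are chr4:73869143-73869442, plus strand for CXCL1, chr2:227813592-227813891, plus strand for CCL20, chr9:128149203-128149502, plus strand for LCN2 and chr15:74725479-74725778, minus strand for CYP1A1.
CXCL1 promoter: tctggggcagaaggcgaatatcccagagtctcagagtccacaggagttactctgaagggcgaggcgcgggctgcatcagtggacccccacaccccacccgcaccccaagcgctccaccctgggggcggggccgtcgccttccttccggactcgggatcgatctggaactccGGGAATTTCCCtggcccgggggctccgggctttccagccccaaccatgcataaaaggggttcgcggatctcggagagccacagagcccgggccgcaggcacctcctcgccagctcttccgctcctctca
CCL20 promoter: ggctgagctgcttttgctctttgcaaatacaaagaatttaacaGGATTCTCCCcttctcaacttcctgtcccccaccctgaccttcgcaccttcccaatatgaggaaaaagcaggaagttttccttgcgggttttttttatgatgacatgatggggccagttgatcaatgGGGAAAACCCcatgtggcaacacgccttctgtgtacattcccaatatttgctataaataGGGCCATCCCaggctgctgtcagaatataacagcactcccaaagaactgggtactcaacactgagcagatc
LCN2 promoter: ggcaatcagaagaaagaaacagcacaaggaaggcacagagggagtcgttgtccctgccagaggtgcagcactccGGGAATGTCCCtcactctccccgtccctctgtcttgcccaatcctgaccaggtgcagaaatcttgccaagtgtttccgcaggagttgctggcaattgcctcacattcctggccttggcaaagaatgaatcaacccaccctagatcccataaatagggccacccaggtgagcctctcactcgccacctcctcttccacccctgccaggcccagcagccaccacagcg
CYP1A1 promoter: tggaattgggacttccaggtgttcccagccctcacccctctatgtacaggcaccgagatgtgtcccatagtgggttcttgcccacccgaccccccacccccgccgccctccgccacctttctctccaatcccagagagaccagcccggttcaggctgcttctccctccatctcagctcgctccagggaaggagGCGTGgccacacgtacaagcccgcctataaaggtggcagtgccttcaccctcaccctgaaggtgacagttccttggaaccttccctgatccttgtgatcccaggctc

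The CXCL1 match began 79 bases before the start and the LCN2 match 176 bases before it, and in both a match on the other strand overlapped it, shifted by 1 base. CCL20 held 3 separate matches, 1 on the gene's strand that began 80 bases before the start and 2 on the other strand. In CYP1A1 the GCGTG lay 57 to 53 bases before the start. The kB pattern, searched on both strands, was present in 25.1% of all 27305 promoters of the same length and in 31.8% of the 9321 promoters matched to tested genes. It was present in 42.1% of the 375 promoters matched to genes 1.5-fold higher at both times and in 29% of the 131 matched to genes lower at both times. The pattern is rich in G and C and so are the transcripts of the higher genes (see the GC values below), and the part of base composition in these shares was not tested. GCGTG was found in 51.6% of tested promoters and in 42.9% of those of the higher genes.

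Each library held between 18141663 and 22108476 reads on genes, recovered as whole reads from the FPKM values. The labelled cell type is enterocyte. The epithelial marker EPCAM stood at FPKM 284 and 284 in the controls and 228 and 250 with the extract, whereas the markers of mature enterocytes summed to between 2.59 and 5.18 over the 4 libraries, with 4 to 8 of 11 at 0 and ALPI at 0 in all 4. Of 13 epithelial markers, 10 or 11 stood at FPKM 1 or more in each of the 4 libraries, so the epithelial origin of the label was seen. The markers of a mature enterocyte were low, and CA2 and SLC51B were the 2 at FPKM 1 or more. CA2 stood at 1.33 and 1.57 in the controls and 1.57 and 1.83 with the extract, and SLC51B at 1.25 and 1.18 against 3.52 and 2.68. Of 12 leukocyte markers 5 or 6 were at 0 in each library, PTPRC and CD3E among them, and the list's summed FPKM, 346 and 386 in the controls and 507 and 609 with the extract, was nearly all LYZ. CD14, another member, stood at 0.671 and 1.86 in the controls and 6.49 and 6.41 with the extract. Fibroblast markers summed to 1.10 and 1.36 in the controls and 4.25 and 3.56 with the extract, nearly all of it COL1A1, and endothelial markers to under 1 in each library.

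Genes that differed the same way at both times were mostly higher. Of the genes tested, 596 (4.45%) were at least 1.5-fold higher at both times and 196 (1.46%) at least 1.5-fold lower. Both controls were under 1 FPKM for 188 of the 596, 9 of them without reads in either control, and for 1 of the 196. Such genes could pass the filter only through treated libraries. At 2-fold the counts were 183 (1.37%) and 11 (0.0822%). At 24 h alone 1359 genes (10.2%) were 1.5-fold higher and 1013 (7.57%) lower, and at 48 h alone 907 (6.77%) and 586 (4.38%). Only 33 and 31 genes, in the 2 possible orders, passed 1.5-fold in opposite directions at the 2 times. Across the 13388 genes the 24 h and 48 h differences had a Pearson r of 0.600, given as a description because genes are not independent replicates, and the median difference of all tested genes was -0.02 and -0.03.

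**Figure D1:**
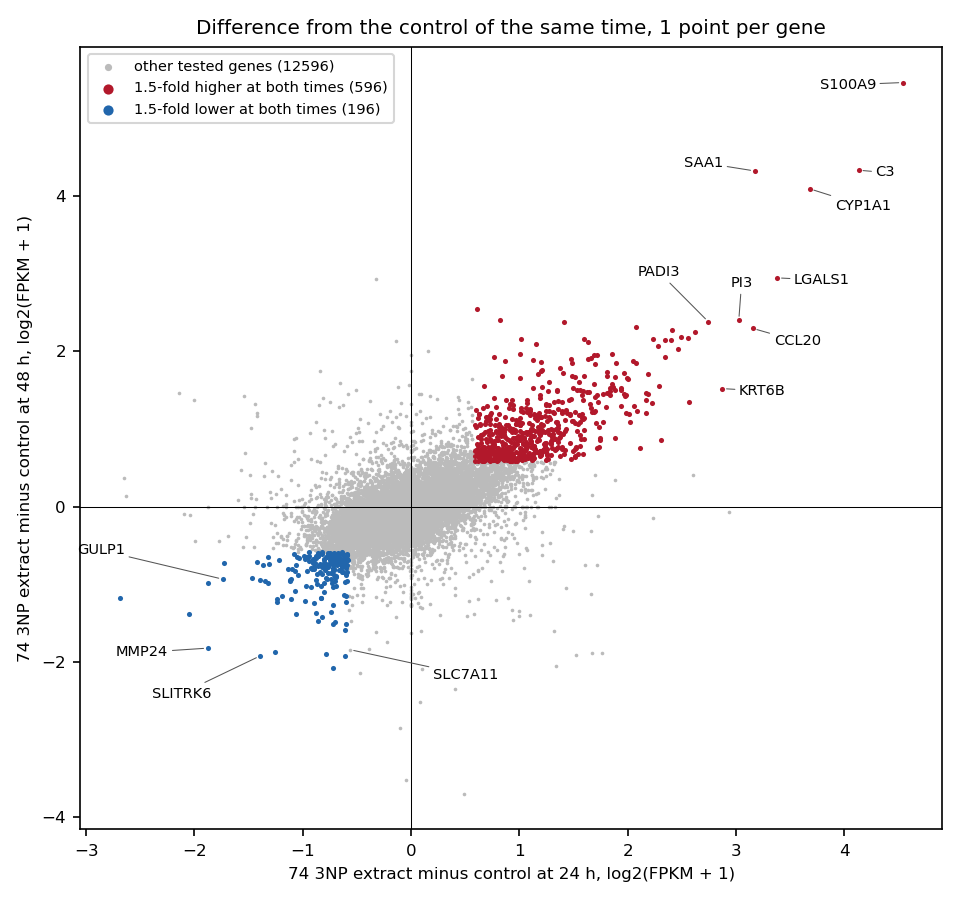
Difference from the control of the same time at 24 h (horizontal axis) and 48 h (vertical axis) on the log2(FPKM + 1) scale, 1 point per tested gene, with genes 1.5-fold higher at both times in red and lower at both times in blue. The 596 higher genes reach further from 0 than the 196 lower genes, and S100A9, C3, SAA1 and CYP1A1 lie farthest out.

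By the limma test 7 genes rose (0.0523%) and 0 fell (0.0%), with 938 higher (7.01%) and 685 lower (5.12%) at an unadjusted p under 0.05. The 7 were CYP1A1, SAA1, CCL20, CXCL1, WFDC2, SCAMP5 and EFNA3, and the lowest limma adjusted p among genes on the lower side was 0.125. CYP1A1, SAA1 and CCL20 had both controls under 1 FPKM, so they could pass the filter only through treated libraries. Limma voom on the recovered reads called 16 higher and 1 lower, and 0 genes passed with median-ratio scaling, quantile normalization, no filter, no variance trend or the loess correction described next. The limma count fell to 0 without any 1 of 4 libraries, the control 48 h, the extract 24 h and both 5-fluorouracil libraries, and to 2 without the control 24 h and 1 without the extract 48 h library, whereas without the 76 3P extract 24 h or 48 h library it was 104 or 101. The labels tie no library to a separate culture, so p-values measure the spread between these libraries, which also holds how far each treatment's effect differed between the times. In what follows, rose is used only of those 7 genes.

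The genes higher at both times had transcripts richer in G and C. Their median GC content was 58.0%, against 49.2% over all tested genes and 42.1% for the genes lower at both times. Split into 5 equal groups by GC content, in the group with the highest GC 10.6% were higher at both times and 0.680% lower, and in the group with the lowest 0.756% were higher and 3.55% lower. The 24 h extract library also had the highest GC content of its reads of all 8, 53.9% against 51.9% in its control, and the 48 h pair stood at 52.6% and 52.2%. After a loess correction of each library for GC content and gene length, 448 genes were higher at both times, 414 of them among the 596, and 136 lower, 79 of them among the 196. Beside each list below, the corrected count is given where it differs by over 1.5 times.

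**Figure D2:**
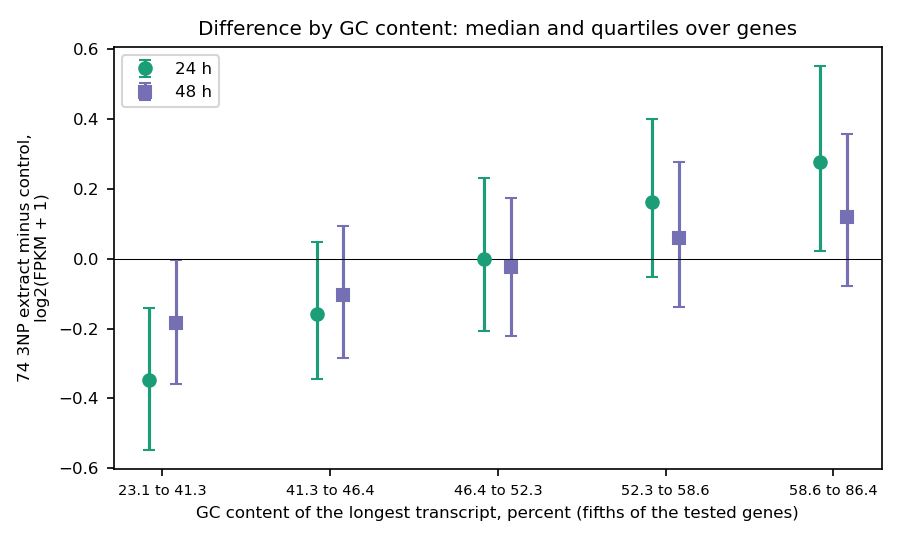
Median difference from the control (points) and quartiles over genes (bars) on the log2(FPKM + 1) scale, for the tested genes split into 5 equal groups by the GC content of the longest transcript. The median climbs from -0.35 in the lowest group to 0.28 in the highest at 24 h, and from -0.19 to 0.12 at 48 h.

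Of the AhR genes, CYP1A1, a monooxygenase that oxidises aromatic compounds, stood at FPKM 0.932 and 0.988 in the 24 h and 48 h controls and at 23.8 and 32.9 with the extract. Both treated libraries lay far above both controls, and with both controls under 1 FPKM the gene could pass the filter only through treated libraries. CYP1A1 rose by 3.89 (SE 0.44, n = 2 libraries a group, limma adjusted p 0.0394), and its read ratio was 25.5 (95% interval 20 to 33) at 24 h and 33.4 (26.5 to 42.5) at 48 h, intervals that cover counting error only. CYP1B1, a relative that also oxidises estrogens, stood at 9.09 and 9.06 in the controls and 22 and 26.2 with the extract, and ALDH3A1, an aldehyde dehydrogenase, at 18.2 and 19 against 30 and 30.4. In both the groups did not overlap, but neither passed the limma test (adjusted p 0.131 and 0.289). These 3 of 7 tested target genes were 1.5-fold higher at both times. TIPARP and AHRR, which encode repressors of the receptor, differed by 0.35 and 0.48, and by 0.19 and 0.09, at 24 h and 48 h. The glucuronosyltransferase gene UGT1A6 was lower, by -0.32 and -0.57, although its exons are shared with other UGT1A genes. NQO1, the remaining tested target, differed by 0.09 and -0.50. The other P450 target, CYP1A2, reached at most 0.155 in the 4 libraries and was not tested. None of the 5 genes for the receptor and its partners passed 1.5-fold at both times.

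Chemokine genes held 2 of the 7 genes that rose. CCL20, which draws dendritic cells and Th17 cells through CCR6, was at 0.347 and 0.877 in the controls and 11 and 8.22 with the extract, on 12, 32, 334 and 243 reads. It rose by 2.73 (SE 0.26, limma adjusted p 0.0370). CXCL1, a neutrophil attractant acting on CXCR2, was at 1.29 and 2.21 against 11.6 and 12.2 and rose by 2.25 (SE 0.23, limma adjusted p 0.0370). For both genes both treated libraries lay well above both controls. CXCL8, the best known neutrophil attractant, stood at 7.53 and 15.9 in the controls and at 31.7 and 46.9 with the extract, without overlap, a mean difference of 1.72 (SE 0.40, limma adjusted p 0.203). CXCL3 was higher by 1.54 and 0.67 at the 2 times, CX3CL1, a membrane-anchored attractant of monocytes, by 1.33 and 0.87, and CCL22, an attractant of regulatory T cells, by 2.01 and 1.19. The family did not move as one, since CXCL2 differed by only 0.28 and 0.44 and CXCL16 by -0.12 at both times. In all 6 of 10 tested chemokine genes were 1.5-fold higher at both times and 0 lower, the median difference was 1.43 at 24 h and 0.77 at 48 h, and 2 of the 10 had both controls under 1 FPKM. Chemokine promoters in the RefSeq table held the kB pattern in 6 of 7 cases. CXCL1, CXCL2 and CXCL3 are close in sequence, so reads may be split among them.

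Cytokines and their receptors showed less. Of 11 tested cytokine genes 2 were 1.5-fold higher at both times (1 after the correction), among them LIF, an IL-6 family cytokine, at 7.65 and 6.69 against 15.4 and 11.8. TNF was at 0.0549 and 0.677 in the controls and 1.28 and 1.22 with the extract, and IL6 was at 0 in the 4 libraries. Of 15 receptor genes 2 passed 1.5-fold at both times, TNFRSF1B, a TNF receptor, at 1.71 and 1.07, and IFNGR1, an interferon gamma receptor chain, at 0.83 and 0.64. The main TNF receptor gene, TNFRSF1A, differed by 0.13 and -0.30.

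Genes of the NF-kB feedback loop were higher, more at 24 h than at 48 h. Of 22 tested, 10 were 1.5-fold higher at both times and 0 lower, with medians of 0.88 and 0.57. NFKBIA, which encodes the inhibitor that holds NF-kB in the cytoplasm, stood at 10.9 and 13.6 in the controls and 25.6 and 25.6 with the extract. TNFAIP3, a ubiquitin editor that shuts the pathway down, stood at 0.541 and 0.452 against 3.18 and 2.34. With both controls under 1 FPKM, TNFAIP3 could pass the filter only through treated libraries. The groups did not overlap for either gene, and the limma adjusted p was 0.151 for NFKBIA and 0.222 for TNFAIP3. ZC3H12A, an RNase that destroys inflammatory mRNAs, was higher by 1.53 and 1.51, TNIP1, a partner of TNFAIP3, by 1.11 and 1.06, BIRC3, a ubiquitin ligase of the TNF receptor complex, by 1.17 and 1.02, and the adhesion molecule ICAM1 by 1.46 and 1.19. Of the subunits, RELB was higher by 1.28 and 0.56 and NFKB2 by 1.01 and 0.51, short of 1.5-fold at 48 h. The list's other 3 subunit genes, named after their values were seen, were lower at both times, RELA by -0.06 and -0.07, NFKB1 by -0.01 and -0.30 and REL by -0.16 and -0.78. Promoters with the kB pattern numbered 12 of 19 matched members, against 1 of 5 in the acute phase and antimicrobial list described next, LCN2.

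Acute phase and antimicrobial genes held 2 of the 7 genes that rose, and S100A9. SAA1, an acute phase apolipoprotein, stood at 0.260 and 0.308 in the controls, on 4 and 5 reads, and 10.3 and 25.2 with the extract, on 140 and 332 reads, and rose by 3.75 (SE 0.43, limma adjusted p 0.0394). WFDC2, a protease inhibitor of epithelia, stood at 7.52 and 21 against 42.1 and 82.7 and rose by 2.13 (SE 0.25, limma adjusted p 0.0394). Both controls were below both treated libraries, and WFDC2 also climbed with time within each group. S100A9, a subunit of calprotectin, the neutrophil protein measured in stool as a sign of gut inflammation, stood at 1.77 and 1.98 in the controls and 63.4 and 131 with the extract. The mean difference was 5.00 (SE 0.68), and the limma adjusted p 0.0682. Its partner S100A8 had no reads in the controls and reached 0.471 and 0.786, too low to be tested. C3, the central complement protein, stood at 0.155 and 0.200 against 19.3 and 23.2, with read ratios of 124 (95% interval 85.6 to 187) and 116 (84.3 to 164) and a limma adjusted p of 0.104. The limma SE pools the spread of all 4 treatments, and with the 76 3P extract S100A9 was at 2.19 and 42.2 and C3 at 1.14 and 20.2 at 24 h and 48 h, far apart between the times.

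LCN2, which starves bacteria of iron by binding their siderophores, was abundant already in the controls, at 200 and 242, and stood at 1177 and 1098 with the extract. PI3, the elastase inhibitor elafin, stood at 16.2 and 23.8 against 139 and 130. DEFB1, a defensin gene, was higher by 1.63 and 2.13, SERPINA1, which encodes the main elastase inhibitor of plasma, by 1 and 1.09, and LYZ, the lysozyme gene, by 0.53 and 0.65. All 11 tested genes of the list were higher by any size at both times and 9 passed 1.5-fold. The list had 29 names, 18 of them below the filter, and 3 of the 11 had both controls under 1 FPKM, so such members could pass only through treated libraries. SAA2 is an example just inside the filter, with 0 reads in both controls, 0.585 and 1.42 with the 74 3NP extract and 2.85 in the 76 3P extract 48 h library. SAA1 and SAA2 are near-identical and their reads are uncertain. The other complement genes differed less: of 11 tested, C3, C4BPB and CFD were 1.5-fold higher at both times, and the regulator CD46 was lower by -0.56 and -0.42.

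**Figure D3:**
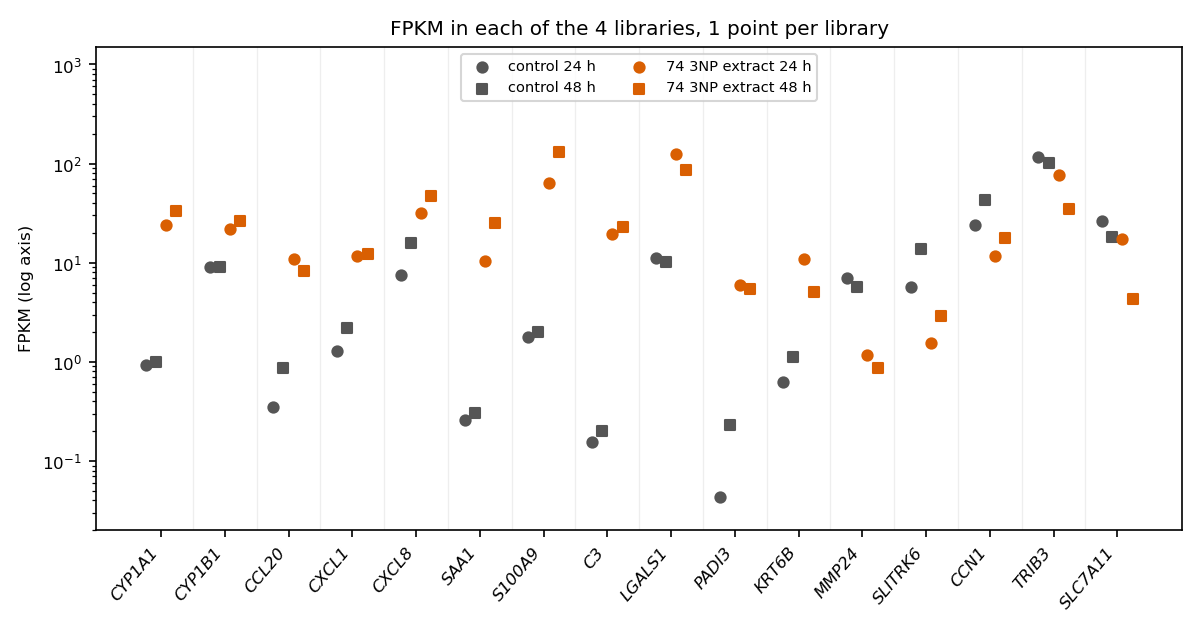
FPKM on a log axis of 16 genes in the 4 libraries, 1 point per library, controls in grey and the 74 3NP extract in orange, 24 h as circles and 48 h as squares. From CYP1A1 to KRT6B both treated points lie above both controls, and from MMP24 to SLC7A11 both lie below.

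Antigen presentation genes were higher to a smaller extent, 4 of 14 by 1.5-fold at both times and 12 of 14 higher by any size at both, against 33.0% of all tested genes. HLA-B, a class I chain, stood at 12.6 and 15.9 in the controls and 38.9 and 50.5 with the extract, without overlap (limma adjusted p 0.168). PSMB9, a subunit of the immunoproteasome, was higher by 1.27 and 1.23 and HLA-F by 1.19 and 0.94, while B2M, the light chain of all class I molecules, differed by 0.20 and 0.28. Class I genes are close in sequence. Interferon-stimulated genes did not share this, with 1 of 18 past 1.5-fold at both times and medians of -0.07 and 0.27.

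In the prostaglandin pathway PTGS1, the constitutive cyclooxygenase, stood at 6.67 and 13.1 in the controls and 24.4 and 35.1 with the extract. PTGES, the synthase that makes prostaglandin E2 from its product, stood at 10.5 and 10.1 against 33.8 and 21.1. PLA2G4A, which releases the arachidonic acid they use, was higher by 0.77 and 0.81. With ASS1, a urea cycle enzyme that supplies arginine, these were 4 of 9 tested members 1.5-fold higher at both times. Neither PTGS1 nor PTGES passed the limma test (adjusted p 0.246 and 0.296).

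In a list for stratified epithelium and the cornified envelope, 12 of 24 tested members were 1.5-fold higher at both times and 0 lower. The medians were 0.88 and 0.62. The list was not limited to genes specific to that tissue. The list had 34 names, 10 of them not tested. Of the 24, 7 had both controls under 1 FPKM, so such members could pass only through treated libraries. KRT5, KRT14, KRT6A, IVL and TGM1 did not pass the filter, with KRT14 at 0.020 and 0.019 in the controls and 0.070 and 0 with the extract. The list holds 3 peptidylarginine deiminase genes, whose products turn arginine into citrulline in keratins. PADI2 stood at 2.34 and 2.64 in the controls and 17.8 and 15.6 with the extract, PADI3 at 0.0433 and 0.233 against 5.99 and 5.43, and PADI1 at 0.366 and 0.330 against 2.16 and 2.86. Their groups did not overlap, and the limma adjusted p was 0.222, 0.255 and 0.118. The keratin gene KRT6B stood at 0.620 and 1.12 against 10.9 and 5.08, KRT23 at 0.712 and 0.570 against 6.20 and 4.67, and SPRR1B, a cornified envelope precursor, at 2.01 and 0.847 against 5.68 and 6.88. The cross-linking enzyme TGM2 was higher by 1.69 and 1.23. KRT17 differed in opposite directions, 0.32 at 24 h and -0.81 at 48 h. Of the CEA family and enterocyte genes, CEACAM6 was higher by 0.88 and 1.37 and CDX2, the transcription factor of intestinal identity, stood at 1.10 and 1.29 against 3.22 and 6.24. KRT20, a keratin of differentiated colon cells, differed by -0.39 and -0.36.

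A further group is known from wound healing and mesenchymal transition, with 5 of 13 tested members 1.5-fold higher at both times. LGALS1, the lectin galectin-1, stood at 11.1 and 10.2 in the controls and 125 and 85.3 with the extract, a mean difference of 3.16 (SE 0.51, limma adjusted p 0.104). FN1, fibronectin, was higher by 1.77 and 1.45, TNC, tenascin, by 1.34 and 1.5, and SNAI1, a repressor of E-cadherin, by 1.42 and 0.98. The fibroblast marker COL1A1 moved with them from 1.08 and 1.35 to 4.16 and 3.51, with DCN and COL1A2 at or near 0 in all 4 libraries, and its part in these differences was not tested. CDH1, which encodes E-cadherin, differed by 0.07 and -0.0012. Of the list's 22 names 9 were not tested. VIM, CDH2, SNAI2, TWIST1, ZEB1 and ZEB2 did not pass the filter.

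The last 2 of the genes past the limma test belong to other groups. EFNA3, a ligand of Eph receptor kinases, stood at 0.924 and 2.56 against 5.75 and 10.8 and rose by 1.77 (SE 0.21, limma adjusted p 0.0394). SCAMP5, a protein of secretory vesicles, stood at 2.17 and 3 against 11.4 and 12.2 and rose by 1.84 (SE 0.19, limma adjusted p 0.0370). Of 13 tested ephrins and Eph receptors, EFNA3 and EPHB2, at 1.39 and 0.77, were the 2 that passed 1.5-fold at both times. Other genes among the 20 highest at both times were CDA, which inactivates cytidine drugs, at 1.57 and 2.61 against 14.8 and 16.1, UBE2L6, the conjugating enzyme of ISG15, at 1.92 and 3.88 against 13.8 and 20.6, SLC29A4, a monoamine transporter, at 2 and 5.16 against 15 and 28.8, and RNASE1, a secreted ribonuclease, at 1.02 and 1.69 against 7.36 and 8.86. CD52, HEPHL1, KREMEN2 and SEMA6B completed the 20, with differences between 2.07 and 2.40 at both times.

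Of 29 glycolysis and hypoxia genes, 10 were 1.5-fold higher at both times and 0 lower, with medians of 0.42 and 0.65. CA9, a carbonic anhydrase that is a standard marker of hypoxia, stood at 4.30 and 8.34 in the controls and 8.68 and 33.4 with the extract, so that the 24 h treated library lay barely above the 48 h control. ALDOC, an aldolase, stood at 3.69 and 5.12 against 8.40 and 22.9, and SLC16A3, the lactate exporter, at 18.7 and 22.6 against 42.5 and 52.7. SLC2A1, the glucose transporter GLUT1, was higher by 0.71 and 0.66, whereas VEGFA, another hypoxia gene, was not, at -0.07 and -0.38. By any size at both times, 23 of the 29 were higher and 3 lower. The 3 were VEGFA, ADM at -0.25 and -0.04, and EGLN1 at -0.33 and -0.25. In the control libraries themselves several of these genes were higher at 48 h than at 24 h, NDRG1 at 23.3 against 9.48.

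The cholesterol genes had medians of 0.16 at 24 h and 0.56 at 48 h, and the fatty acid synthesis genes 0.29 and 0.09, differences between the times that were not tested. In the cholesterol list 4 of 23 tested members were 1.5-fold higher at both times (1 after the GC and length correction). DHCR7, a late enzyme of the pathway, stood at 32 and 30.4 in the controls and 52.8 and 67.5 with the extract, without overlap (limma adjusted p 0.238), and the early enzyme MVD was higher by 0.66 and 0.77. INSIG1, which holds back the SREBP factors, was lower at 24 h and higher at 48 h, at -0.29 and 1.20. Of 9 tested genes of metallothioneins and zinc transport, MT1A at 1.42 and 2.38, MT1G at 1.49 and 1.86 and MT2A at 0.62 and 1.15 passed 1.5-fold at both times. Metallothionein genes are short and alike, and their reads are uncertain.

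**Figure D4:**
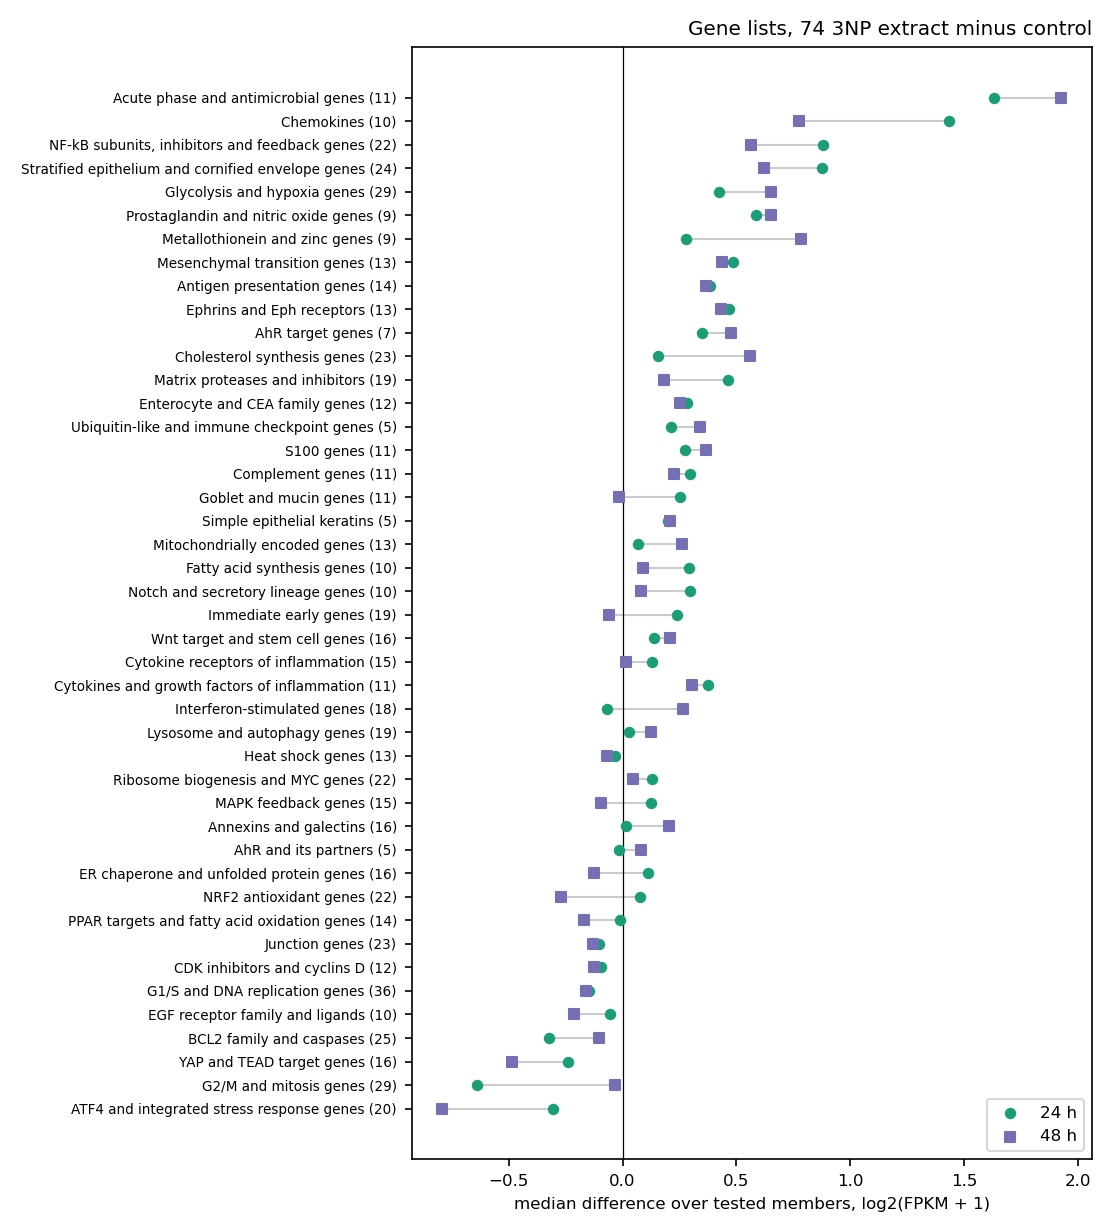
Median difference from the control at 24 h (circles) and 48 h (squares) on the log2(FPKM + 1) scale over the tested members of gene lists with at least 5, whose number is in parentheses. The list of p53 target genes, with 20 tested members, is not drawn. Acute phase genes have the highest median at both times (1.63 and 1.93), the G2/M list has the lowest at 24 h (-0.64) and the ATF4 list the lowest at 48 h (-0.79).

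The genes lower at both times were fewer and less extreme, and none passed the limma test. Ranked by the smaller of the 2 differences, the first protein-coding gene was MMP24, a membrane metalloproteinase, at 6.95 and 5.63 in the controls and 1.16 and 0.875 with the extract, a mean difference of -1.85 (SE 0.33, limma adjusted p 0.125). SLITRK6, a transmembrane protein known from neurons and the inner ear, stood at 5.65 and 13.8 against 1.53 and 2.89, and GULP1, an adaptor for the engulfment of dead cells, at 10.8 and 3.10 against 2.53 and 1.15. In MMP24 and SLITRK6 both treated libraries lay below both controls, as they did in GULP1, where the 48 h control was close to the 24 h treated library. SMC4, a condensin subunit, was lower by -1.12 and -0.95. Chromatin and transcription genes were also among the 20 lowest: BRPF3 at -0.87 and -0.95, JADE2 at -1.07 and -0.82, RESF1 at -0.87 and -1, ZBED3 at -0.93 and -1.03 and ZBTB41 at -0.97 and -0.83. The 20 lowest also held NPNT, an integrin ligand, NEMP1, of the inner nuclear membrane, SLC38A2, an amino acid transporter, and PDK4, a kinase that turns off pyruvate dehydrogenase, at 2.84 and 6.12 against 1.12 and 1.57.

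The integrated stress response is a translation brake that cells apply on amino acid lack or misfolded protein, with ATF4 as its transcription factor. Of 20 tested genes of this list 6 were 1.5-fold lower at both times and 0 higher, with medians of -0.31 at 24 h and -0.79 at 48 h. TRIB3, a pseudokinase, stood at 116 and 102 in the controls and 76.2 and 35 with the extract. GDF15, a secreted stress hormone, stood at 276 and 306 against 181 and 101, and PPP1R15A, which releases the brake, at 45.6 and 33.4 against 24 and 13.6. All 3 were lower in both treated libraries than in either control, with limma adjusted p of 0.289, 0.350 and 0.418. ATF3 was lower by -0.80 and -1.09, ATF5 by -1.10 and -0.80, and DDIT3, which encodes CHOP, by -0.86 and -0.63. For DDIT3 the mean difference was 0.18 without the control 24 h library and 0.026 without the extract 48 h library. Each of these fits leaves 1 library in a group and bridges the times with a term estimated partly from the other treatments. They are therefore not differences between libraries of the same time. Of the list's genes of amino acid synthesis, PSAT1, of serine synthesis, differed by 0.02 and -1.13, ASNS, asparagine synthetase, by 0.18 and -0.94, and CTH, of cysteine synthesis, by -0.37 and -0.81. DDIT4, an mTORC1 inhibitor, went the other way, at 1.15 and 0.38.

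In the list of NRF2 antioxidant genes, SLC7A11, the cystine importer, stood at 26.1 and 18.1 in the controls and 17.3 and 4.34 with the extract, so that the 24 h treated library lay just below the 48 h control and the 24 h difference of -0.57 fell just short of 1.5-fold. GCLM and GCLC, the subunits of the enzyme that starts glutathione synthesis, were lower by -0.63 and -0.85 and by -0.60 and -0.62. In contrast GPX2, a glutathione peroxidase of the gut, was higher by 0.74 and 0.38. Of 22 tested members of the list, 2 were 1.5-fold lower at both times, GCLM and GCLC, and 1 higher, AKR1B10, an aldo-keto reductase, at 0.96 and 0.61 (1 lower and 0 higher after the correction). HMOX1, the heme oxygenase, differed by -0.11 and -0.55.

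YAP and TEAD target genes, a readout of cell spreading and tension, were lower for 4 of 16 by 1.5-fold at both times and higher for 0, with medians of -0.24 and -0.49. CCN1, a secreted matrix protein, stood at 23.9 and 42.6 in the controls and 11.7 and 17.7 with the extract. AJUBA, an adaptor that inhibits the LATS kinases, stood at 21.3 and 19.3 against 10.3 and 9.02, and EDN1, endothelin, at 5.86 and 11.6 against 2.89 and 3.68. CCN2, the best known target, was lower by -0.45 and -0.77, but its mean difference was 0.18 without the control 48 h library. That fit too bridges the times with a term estimated partly from the other treatments. EDN1 and CCN1 were higher in the 48 h than in the 24 h control, and the limma adjusted p was 0.465 and 0.425.

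**Figure D5:**
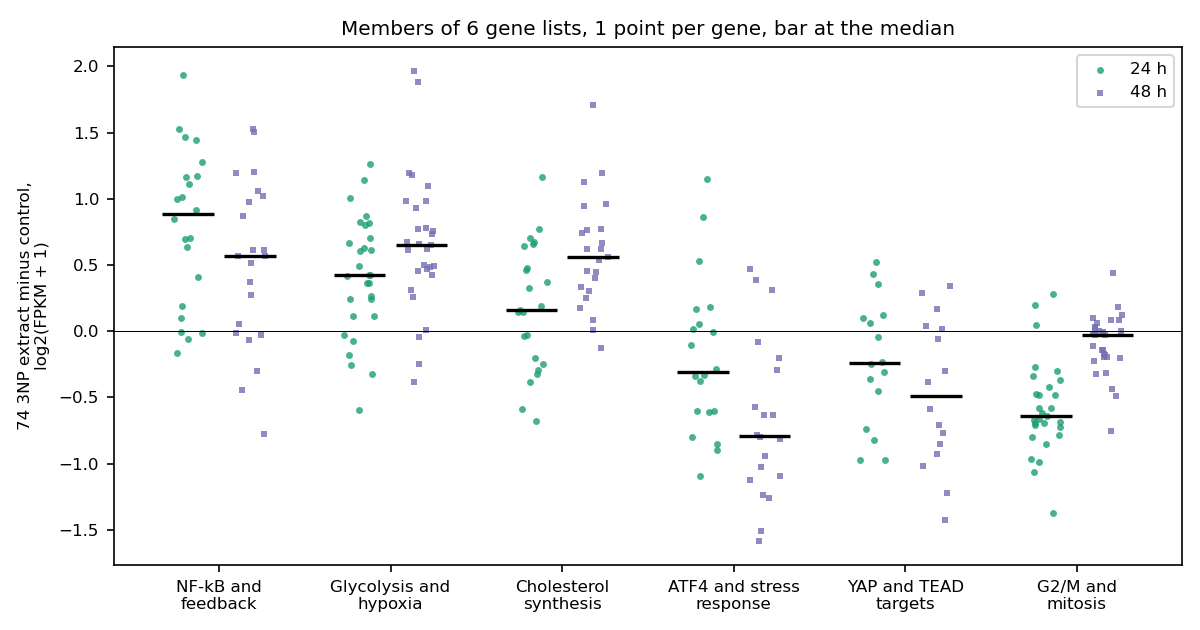
Difference from the control on the log2(FPKM + 1) scale of each tested member of 6 gene lists at 24 h (circles) and 48 h (squares), with a bar at the median. The G2/M list lies below 0 at 24 h, with a median of -0.64, and around 0 at 48 h, with a median of -0.03, while the ATF4 list lies lower at 48 h.

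The title of the series names cell cycle regulation and apoptosis. G2/M and mitosis genes were lower at 24 h, with 26 of 29 tested members below the control and a median of -0.64, against 51.6% of all genes below it. At 48 h 19 of 29 were below the control and the median was -0.03, against 53.4% of all genes. ASPM, a spindle protein, was the member 1.5-fold lower at both times, at 11.5 and 8.52 against 3.85 and 4.66 (limma adjusted p 0.176). CDK1, the mitotic kinase, stood at 31.8 and 33.9 in the controls and 17.2 and 27 with the extract, TOP2A, which untangles chromosomes, at 106 and 92.3 against 68.4 and 73.6, and DLGAP5, a spindle factor, at 16.2 and 12.4 against 7.22 and 12.4. For these 3 genes of the G2/M list the difference was smaller at 48 h than at 24 h, and this change between the times was not tested. MKI67, the proliferation marker, differed by -0.34 and -0.20. Transcripts of this list are poor in GC, and after the GC and length correction the medians were -0.44 and -0.02 and 0 members were 1.5-fold lower at both times. G1/S and DNA replication genes differed by less, with medians of -0.15 and -0.16 and 0 of 36 past 1.5-fold at both times (2 lower after the correction). Below the control were 23 of 36 at 24 h and 31 of 36 at 48 h, against 51.6% and 53.4% of all genes. The corrected medians were -0.18 and -0.13. TYMS, thymidylate synthase, stood at 12 and 14.3 against 7.07 and 9.33, and PCNA, the sliding clamp, at 129 and 155 against 110 and 131. From bulk RNA, fewer cells in mitosis and less of these mRNAs per cell cannot be told apart.

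Of 25 tested BCL2 family and caspase genes, 2 were 1.5-fold higher at both times and 2 lower, against 4.45% and 1.46% of all tested genes. BIK, a BH3-only activator of apoptosis, stood at 4.89 and 3.90 against 10.3 and 8.84, and BIRC3 was the other higher gene. PMAIP1, which encodes the BH3-only protein NOXA, stood at 9.61 and 9.27 against 4.94 and 4.04, and AVEN, a caspase inhibitor, at 8.36 and 5.83 against 1.83 and 3.11. So 1 activator was higher and 1 lower, and the 4 genes had limma adjusted p between 0.233 and 0.382. MCL1, a survival gene, was lower by -0.32 and -0.23.

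Non-coding genes were a small part of the genes higher at both times, 40 lncRNA genes beside 512 protein-coding ones. AC092687.3, a lncRNA, stood at 0.703 and 3 in the controls and 9.08 and 9.19 with the extract. MIR3189, a microRNA precursor whose coordinates lie within GDF15 on the same strand, stood at 23.4 and 35.9 against 9.34 and 14.8, in the direction of its host gene, whose reads it may share. Other listed small RNA genes rest on few reads, SNORD117 on 9 and 5 in the controls and 0 and 1 with the extract, and the strand of the reads is not stated.

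Of the genes above, the extract of MRQ 76 rice gave similar FPKM for some and not for others. The 2 extracts came from different rice lines, their doses are given only as IC50, and their differences from the control share the control libraries. With the 76 3P extract CYP1A1 stood at 17.7 and 81.8 and CYP1B1 at 21.7 and 27.9. KRT23, KRT6B and SPRR1B stood at 0.350 and 0.774, 0.546 and 0.647, and 0.823 and 0.741 with that extract. None of these 6 values was 1.5-fold above the control of its time. KRT23 at 48 h was above that control, whereas KRT23 at 24 h and both values of KRT6B and of SPRR1B were below it. The difference between the extracts was 2.05 (SE 0.26) for KRT23 and 2.41 (SE 0.32) for KRT6B, both with a limma adjusted p of 0.0738. In the other direction ATF3 stood at 19.3 and 74.5, DDIT3 at 23.1 and 106, and TRIB3 at 146 and 188 with the 76 3P extract, above the controls rather than below. By limma 0 genes passed the test between the extracts, with 1726 at an unadjusted p under 0.05 and a lowest adjusted p of 0.0580.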

How the data were processed

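RNA of 8 HT-29 libraries was sequenced on an Illumina platform and mapped with HISAT2 2.0.5 to GRCh38 (also named hg38), per the submitters' processing notes. The sources used here do not name the counting tool, annotation or strand setting. A deposited table gives FPKM for 60796 genes, per the file headers, and a deposited table of counts of sequenced and filtered reads per library also gives GC content as a percent. FPKM times gene length came out as whole reads for 100% of values (tolerance 0.01 reads). Control libraries held 20815214 and 22108476 reads on genes and extract libraries 19193986 and 18141663. With 0 reads, up to 3 remain possible.

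The test was limma 3.58.1 in R 4.3.3 on log2(FPKM + 1), pseudocount 1, with a variance trend and additive treatment and time terms over all 8 libraries, which left 3 residual degrees of freedom. Tests were two-sided at an adjusted p of 0.05. Scripts were tested on simulated data. Read ratios carry exact conditional 95% intervals. GC content was that of the longest GENCODE transcript, known for 98.8% of tested genes.

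The genes, the 45 gene lists, the 5 marker lists and the tests were chosen with earlier results of these data known. Named genes were those past limma, the 20 highest and 20 lowest protein-coding genes changed 1.5-fold at both times with a mean FPKM of 2 or more over the 4 libraries, key members of the lists described, up to 4 further members per list by mean difference, and up to 5 non-coding genes per direction. Marker genes outside that rule were named as checks. A few genes that met the rule are left out of the text. Alternatives were other pseudocounts, filters and scalings, other limma fits, each library left out, and a GC and length correction added after seeing the data.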

Additional observations from a re-analysis of the deposited data

How the results depend on the processing

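The count of genes that rose by limma, 7, was 1 with a pseudocount of 5, 25 with a filter at FPKM 5, 864 on only the 4 libraries compared, 2 with no time term, 16 with limma voom, and 0 with no filter, no variance trend, quantile normalization, median-ratio scaling or the GC and length correction. Leaving out each library in turn gave between 0 and 104 higher and between 0 and 3 lower. The count of lower genes, 0, was 480 on only the 4 libraries and 1 with limma voom. Each of the 7 genes was higher under every alternative, CYP1A1 between 2.47 and 5.01 and EFNA3 between 0.96 and 2.29.

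The genes 1.5-fold higher and lower at both times, 596 and 196, numbered 908 and 493 with a pseudocount of 0.1, 185 and 25 with a pseudocount of 5, 306 and 124 with a filter at FPKM 5, and 183 and 11 at 2-fold. The higher genes were 75.3% of the total, between 64.8% and 88.1% under these pseudocounts and between 68.6% and 80.0% under other scalings. These counts have no value with a library left out, since each time has 1 pair.

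Of 136 named genes under 20 alternatives, the mean difference changed sign in 13 cases, all with 1 library left out. Over the left-out libraries the lowest and highest values were -0.87 and 0.11 for ASNS, -1.41 and 0.18 for CCN2, -1.66 and 0.18 for DDIT3, -1.26 and 0.59 for HMOX1, -0.12 and 1.02 for INSIG1, -0.93 and 0.44 for KRT17, -1.11 and 0.0017 for PSAT1, -0.17 and 0.042 for RELA, -0.33 and 0.16 for TNFRSF1A and -0.97 and 0.072 for UGT1A6. The cause of these changes was not tested. The labels give no replicate numbers to pair by. With all libraries in the fit, the time term sets each treated library against the control of its own time. With a control or an extract library of the comparison left out, its partner has no match at the same time. The fit then bridges the times with a term estimated partly from the other treatments. Mean differences from such fits are therefore not differences between libraries of the same time. Depth limits genes at a few reads, such as SAA1 in the controls with 4 and 5 reads.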

Other observations

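Several further lists are given here as values. Of 13 mitochondrially encoded genes 7 were higher by any size at both times and 0 lower, with medians of 0.07 at 24 h and 0.26 at 48 h. Ribosome biogenesis and MYC genes had medians of 0.13 and 0.05 over 22 members, heat shock genes -0.03 and -0.07 over 13, ER chaperone genes 0.11 and -0.12 over 16, and junction genes -0.10 and -0.13 over 23, and in these lists 0 genes passed 1.5-fold at both times in either direction. Of 16 Wnt target and stem cell genes 2 were 1.5-fold higher at both times and 0 lower (2 and 1 after the GC and length correction), and of 11 goblet and mucin genes 1 was higher (0 after it). Of 11 S100 genes 4 were 1.5-fold higher at both times, with medians of 0.27 and 0.37, and of 19 matrix proteases and inhibitors 2 were higher and 1 lower, with medians of 0.46 and 0.18.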
